A study of Mus musculus with 11 samples.

Results

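A set of 10 cell surface glycoproteins used to type fibroblasts and other mesenchymal cells was followed in cells that differ in the number of intact β-actin (Actb) genes. The set holds Cd34, Pdpn, Thy1, Ly6a, Eng, Cd44, Vcam1, Icam1, Ncam1 and Alcam, which are 10 of the 46469 gene symbols in the tables, and was found by symbol. It was chosen by the measured FPKM of the WT, Het and KO libraries, that is, with results of these libraries known, so the differences between genotypes of these 10 genes are given as a description with intervals and without p-values. In cells with no intact Actb, Pdpn, Eng and Cd34 were at or below 2.67% of their wild-type level, while Ly6a was 6.25-fold and Ncam1 2.97-fold higher. In cells with 1 intact copy, Cd34 and Ly6a stood 3.88-fold and 8.28-fold above wild type, Pdpn and Vcam1 were 1.74-fold and 1.72-fold higher, and Alcam was at 16% of wild type.

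Poly(A) RNA was sequenced from embryonic fibroblasts of the mouse strain BALB/c, taken from 10.5 day embryos, with the genotypes Actb +/+ (WT, 4 libraries), Actb +/- (Het, 4 libraries) and Actb -/- (KO, 3 libraries, numbered 1, 3 and 4). All cells were grown in high-glucose DMEM with 10% serum, and RNA was taken at 70% confluence. The series calls its replicates biological but leaves unsaid whether they are separate embryos, cultures or lines, so intervals and p-values cover the spread among these libraries, and that may be technical. A further KO library, which the submitters left out after quality control, is not analysed here.

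Fibroblasts are told apart, and isolated, by the glycoproteins on their surface, since the cells have no single defining marker. Cd34 and podoplanin are mucin-like proteins, Thy1 and Ly6a (Sca-1) hang from the membrane by a glycolipid (GPI) anchor, endoglin is a co-receptor for ligands of the transforming growth factor β (TGF-β) family, CD44 binds the matrix polymer hyaluronan, and VCAM-1, ICAM-1, NCAM and ALCAM are adhesion proteins built of immunoglobulin domains. CD44, podoplanin and ICAM-1 bind, inside the cell, the ezrin, radixin and moesin proteins that link the membrane to actin filaments.

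Levels are FPKM as deposited, that is, fragments normalised to transcript length and to library size, which allow comparison between genes of different length. Between 13885 and 14202 symbols reached 1 FPKM in a library, and relative depth ran from 60.7% (WT 3) to 125% (WT 4) of WT 1, with KO 1 at 65.6%. Actb itself was at 1350 ± 224.2 FPKM in WT, 856.4 ± 22.47 in Het and 43.48 ± 1.697 in KO (here and below ± is the SD over 4 WT, 4 Het and 3 KO libraries), so no library went against its label. The summed FPKM of 14 markers of fibroblasts lay at 1534 to 2103 in WT, 2565 to 2964 in Het and 3475 to 4213 in KO, most of it from Vim, S100a4, Fn1 and Col1a1. Some of the other markers in this list were low outside Het. In WT, Het and KO, the matrix proteoglycan Dcn averaged 0.8161, 61.37 and 1.115 FPKM, the growth factor receptor Pdgfra 0.2152, 4.431 and 0.9156 and the collagen chain Col1a2 6.998, 197.9 and 10.95. Lum was listed at 0 in WT and KO and averaged 0.04766 FPKM in Het. The rest were not restricted to Het. In WT, Het and KO, Pdgfrb averaged 18.86, 39.67 and 65.28 FPKM, Fbln2 42.42, 57.27 and 75.34 and Prrx1 11.68, 62.96 and 28.19. Fbln1 averaged 20.75, 33.52 and 20.21 FPKM, Twist1 9.722, 5.201 and 9.756 and Twist2 8.189, 15.87 and 7.294. Blood and macrophage markers, 13 of which were found, summed to 2.197 to 4.077 FPKM in WT, 1.732 to 3.79 in Het and 3.826 to 6.164 in KO. Ptprc, Cd3e, Tyrobp and Hbb-bs were among those listed at 0 in all 11 libraries, while Cd68 averaged 1.876, 1.579 and 2.725 FPKM and Kit 0.02201, 0.1217 and 1.366. The log2 difference of Kit in KO was 1.25. Kit passed the filter of 1 FPKM in 3 libraries only through KO, where it is high, and its call was lost without any 1 KO library. The other marker lists gave summed FPKM, in WT, Het and KO, of 30.16 to 77.91, 28.45 to 41.24 and 27.77 to 45.15 for 10 epithelial genes, of 55.59 to 108.7, 42.92 to 51.63 and 43.99 to 62.52 for 6 mesothelial genes, and of 126.6 to 137.3, 84.14 to 89.08 and 112.4 to 116.3 for 11 neural genes. Most of the epithelial sum was Krt19 (43.84, 24.94 and 36.07 FPKM on average), which is also in the mesothelial list. Krt18 averaged 1.725, 6.686 and 0.2047, while Epcam, Cdh1, Krt5 and Krt8 averaged at most 0.576 in any genotype. The mesothelial sum came mostly from Krt19 and Msln (33.31, 16.67 and 15.67), and the neural sum from Nes (116.7, 59.16 and 90.27). For 7 skeletal muscle genes the sums were at most 2.065 FPKM in any library. Sums of 8 pericyte genes were 43.8 to 56.64, 54 to 63.6 and 130.4 to 136.4 FPKM, nearly all from Mcam and Pdgfrb. Of the other pericyte genes Notch3 averaged 5.015 FPKM in KO and Cspg4 0.01242, against 0.3153 and 3.925 in WT, and Rgs5, Kcnj8, Abcc9 and Higd1b averaged at most 0.2812 in any genotype. How far any of these other cells contribute to the values below was not tested, and in bulk RNA fewer cells of a type and less RNA per cell cannot be told apart.

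The 250 bases before the annotated start of transcription are shown for 4 of the genes, Cd34, Pdpn and Eng because all of them were near 0 in KO, and Alcam because it was lowest in Het and has the start region richest in CpG. Each is read 5′ to 3′ on the strand of the gene from RefSeq (GRCm38.p6), with every CpG dinucleotide in capitals. The windows are chr1:194938571-194938820 (plus strand) for Cd34, chr4:143299565-143299814 (minus strand) for Pdpn, chr2:32646345-32646594 (plus strand) for Eng and chr16:52453082-52453331 (minus strand) for Alcam. The Eng and Alcam windows reach into the deposited loci, whose starts differ from those of RefSeq. The reference is that of C57BL/6J and not of BALB/c.
Cd34 promoter: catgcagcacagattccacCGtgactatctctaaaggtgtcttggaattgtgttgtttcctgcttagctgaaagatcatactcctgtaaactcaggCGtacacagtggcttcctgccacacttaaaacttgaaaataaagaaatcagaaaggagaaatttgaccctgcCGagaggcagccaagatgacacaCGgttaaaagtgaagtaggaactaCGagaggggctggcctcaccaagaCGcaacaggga
Pdpn promoter: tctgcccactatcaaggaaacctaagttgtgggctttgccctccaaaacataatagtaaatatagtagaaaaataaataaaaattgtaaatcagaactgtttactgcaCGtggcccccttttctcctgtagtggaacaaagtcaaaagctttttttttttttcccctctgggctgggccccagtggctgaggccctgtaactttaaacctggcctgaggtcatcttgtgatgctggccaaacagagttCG
Eng promoter: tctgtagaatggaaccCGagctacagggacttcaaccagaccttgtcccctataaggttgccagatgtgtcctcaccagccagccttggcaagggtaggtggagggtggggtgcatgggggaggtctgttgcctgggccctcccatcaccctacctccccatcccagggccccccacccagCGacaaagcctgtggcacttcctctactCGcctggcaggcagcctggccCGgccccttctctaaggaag
Alcam promoter: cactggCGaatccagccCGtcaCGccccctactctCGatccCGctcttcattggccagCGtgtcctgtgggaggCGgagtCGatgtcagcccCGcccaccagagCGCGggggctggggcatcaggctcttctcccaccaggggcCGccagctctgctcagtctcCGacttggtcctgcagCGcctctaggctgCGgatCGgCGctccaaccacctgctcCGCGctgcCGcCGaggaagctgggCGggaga
RefSeq's promoter table held 6 of the 10 genes. Thy1, Ly6a, Vcam1 and Ncam1 were not matched. The Cd34, Pdpn and Eng windows contained 6, 2 and 4 CpG, with observed over expected ratios of 0.446, 0.172 and 0.166, against a median of 0.374 over the 32851 promoters of the table. Alcam held 22 CpG (ratio 0.742), Icam1 15 (0.58) and Cd44 5 (0.257). Cd34, Pdpn and Eng thus lay at the 55.8, 25.6 and 24.8 percentiles of all promoters for this ratio, and Alcam at 76.5. Icam1, also near 0 in KO (0.2099 FPKM), lay at 64.7. Neither strand of the 6 windows held TATAAA (in 12.4% of all promoters), the AP-1 motif TGANTCA (6.75%) or the interferon-stimulated response element (2.98%). The SRF CArG box (1.47%) and the NF-kappaB consensus (7.25%) were absent as well. Absence of these letters from the windows says nothing of the factors themselves.

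Pdpn encodes podoplanin, a sialomucin of fibroblasts, lymphatic endothelium and lung alveolar cells, and ligand of the platelet receptor CLEC-2 (chromosome 4, 143267409 to 143299564, GRCm38). Its FPKM were 43.5, 34.6, 40.0 and 35.4 in WT 1 to 4, 67.5, 67.3, 67.7 and 64.9 in Het 1 to 4, and 0.188, 0.0734 and 0.0609 in KO 1, 3 and 4. Every Het library was above every WT library, and the KO libraries held almost no Pdpn RNA. KO stood at 0.28% of the WT mean (log2 difference -5.11, 95% interval -5.31 to -4.91), the largest fall of the set. Log2 differences, here and for every gene, are on the log2(FPKM + 1) scale. Where a group is near 0 they are smaller than the percentage of means implies, and their intervals do not bound that percentage. In Het the log2 difference from WT was 0.78 (0.60 to 0.97). Among the 14940 genes tested Pdpn moved from the 80.8 percentile of level in WT and 89.7 in Het to 0.857 in KO. The tables list a near-identical copy of Pdpn on an alternate sequence and the 2 were summed, so how reads were split between them is uncertain.

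Cd34 encodes the sialomucin CD34, known as a marker of blood stem cells and endothelium and also carried by tissue fibroblasts (chromosome 1, 194938821 to 194961292). Libraries WT 1 to 4 gave 17.9, 16.6, 18.8 and 16.4 FPKM, Het 1 to 4 gave 66.6, 67.9, 70.2 and 65.6, and KO 1, 3 and 4 gave 0.434, 0.475 and 0.484. The 3 groups lay wide apart, with Het highest. In KO Cd34 was at 2.67% of WT (log2 difference -3.60, 95% interval -3.75 to -3.45) and at 0.687% of Het, and Het was above WT by 1.89 (1.75 to 2.03). The interval that Cufflinks gave excluded 0 in all 3 KO libraries, with a lowest end of 0.0573 FPKM in KO 1. A predicted gene, Gm16897, overlaps the locus, with at most 3.351 FPKM in a library, and whether the counting used strand is not given in the sources used here.

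Eng encodes endoglin, which binds BMP9 and BMP10 and aids their receptor Acvrl1 in endothelium, and is also a standard marker of cultured mesenchymal cells (chromosome 2, 32646532 to 32682669). It measured 8.41, 13.1, 10.4 and 16.4 FPKM in WT 1 to 4, 12.0, 12.5, 13.9 and 13.2 in Het 1 to 4, and 0.139, 0.128 and 0.376 in KO 1, 3 and 4. WT and Het overlapped, while each KO library was below 0.4 FPKM. KO was at 1.78% of the WT mean (log2 difference -3.36, 95% interval -3.73 to -2.99), and in KO 1 and KO 3 the Cufflinks interval reached 0. The difference between Het and WT was 0.12 (-0.22 to 0.46), and it was -0.015 without WT 1, the library with the lowest Eng. WT libraries varied more in Eng than in most genes, with a coefficient of variation of 28.5% against a median of 12.6% over the genes tested. The neighbouring gene Fpgs overlaps the locus and reached 18.45 FPKM.

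Because Cd34, Eng and Pdpn are also endothelial or lymphatic genes, the endothelial markers were read beside them. Tie1, Emcn, Cldn5 and Lyve1 were listed at 0 in all 11 libraries, and Cdh5 in all Het and KO libraries. The sum over 17 endothelial markers was 7.356 to 14.91 FPKM in WT, 6.794 to 8.22 in Het and 5.17 to 7.461 in KO, below the level of Cd34 alone in Het. On average 3 of the 17 reached 1 FPKM in WT, 3 in Het and 1 in KO. Flt4 and Flt1, receptors for vascular endothelial growth factors, fell in KO (log2 differences -1.11 and -0.68, limma adjusted p = 5.15e-05 and 0.00218), from 2.363 and 1.469 FPKM in WT. Egfl7, the third of the 17 that was tested, gave -0.10 (adjusted p = 0.8). Those too low to test went both ways. Kdr, Tek and Vwf averaged 0.374, 0.08317 and 0.09634 FPKM in KO, above their 0.1091, 0.005221 and 0 in WT, and Sox17 was also higher. Prox1, Sox18 and Pecam1 averaged 0.004358, 0.02293 and 0.02189 in KO, below their 0.1178, 0.09119 and 0.04904 in WT. Cdh5, Esam and Erg were also lower in KO.

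**Figure D1:**
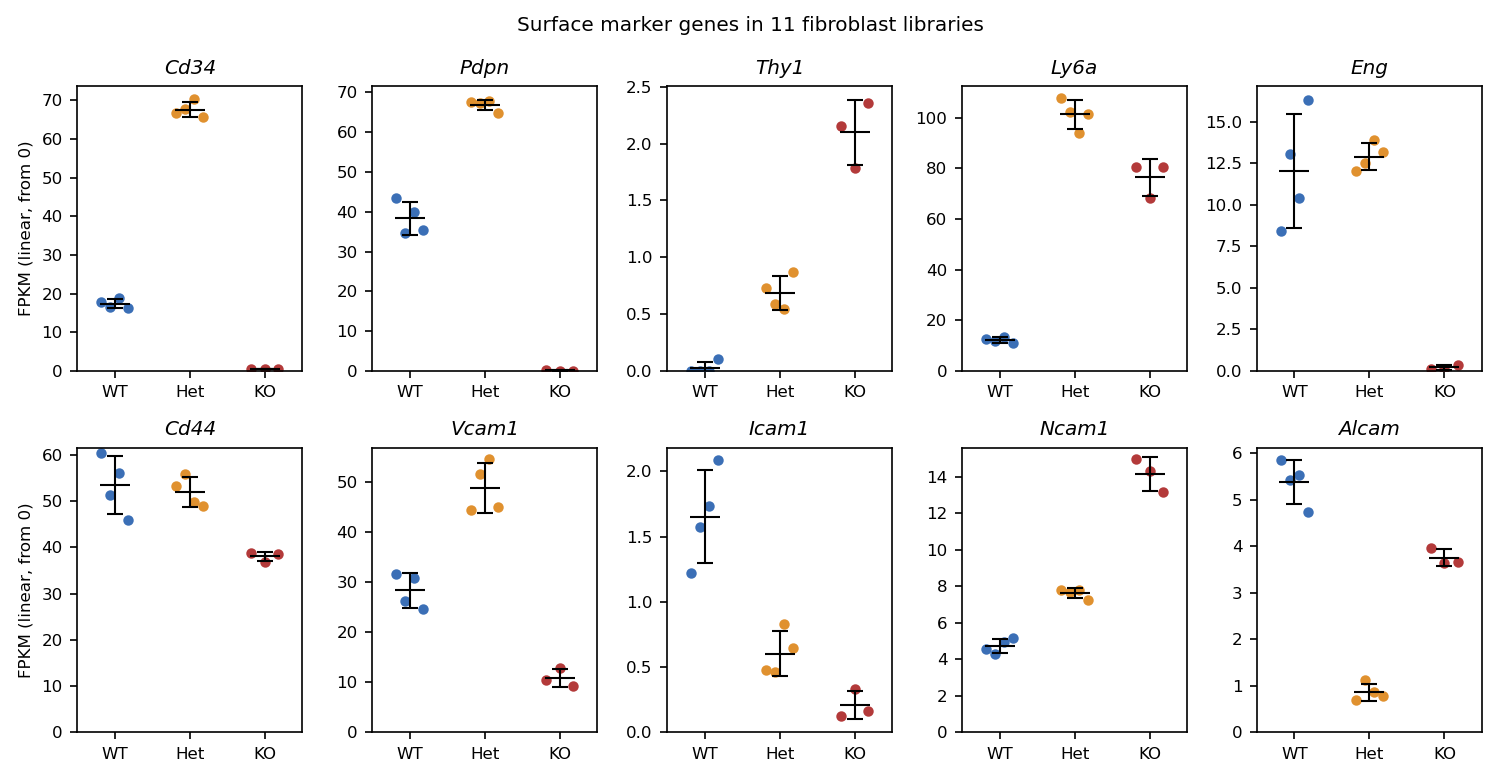
Levels of the 10 surface markers. Each point is 1 library (linear FPKM from 0, separate axis for each gene), bars are the mean and SD of 4 WT, 4 Het and 3 KO libraries, and Cd34, Pdpn and Eng are near 0 in KO while Ly6a, Cd34, Pdpn and Vcam1 are highest in Het.

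Ly6a encodes Sca-1, a GPI-anchored protein of blood stem cells and of fibroblast progenitors (chromosome 15, 74994877 to 74998031). Its FPKM were 12.7, 12.0, 13.4 and 10.8 in WT 1 to 4, 107.6, 102.2, 94.0 and 101.3 in Het 1 to 4, and 80.5, 68.0 and 80.6 in KO 1, 3 and 4. The groups did not overlap, and the lowest library with a disrupted Actb gene, KO 3, stood at 68.0 FPKM against 13.4 in the highest WT library. The log2 difference from WT was 2.94 (95% interval 2.76 to 3.13) in Het and 2.64 (2.45 to 2.84) in KO. KO stood at 75.4% of Het (log2 difference -0.30, -0.50 to -0.10), a difference no longer past the threshold without Het 1 (-0.27) or KO 3 (-0.22). Ly6a was the most abundant of the 10 in both Het and KO and the fifth in WT.

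Of the neighbouring genes on chromosome 15, Ly6c1, Ly6c2, Ly6e and Ly6i had the same order of means, Het, KO, WT, while Ly6f (0.2299 FPKM in WT, 0.7489 in Het and 0.1896 in KO) and Lynx1 (5.2, 4.228 and 2.831) did not. Ly6c1 (75044018 to 75048853), a GPI-anchored protein of monocytes and endothelium, measured 4.11, 1.96, 2.60 and 2.69 FPKM in WT 1 to 4, 28.5, 31.7, 28.1 and 28.6 in Het 1 to 4, and 11.2, 10.4 and 11.7 in KO 1, 3 and 4. As in Ly6a, the groups did not overlap and KO lay between WT and Het. It rose in Het (log2 difference 2.99, limma adjusted p = 7.23e-08) and in KO (1.77, adjusted p = 4.52e-06). Ly6e (74955051 to 74959905), a ubiquitous interferon-induced member, measured 7.691 FPKM in WT, 30.62 in Het and 14.41 in KO on average, and rose in both (1.86 and 0.92, adjusted p = 1.79e-07 and 4.36e-05). Ly6c2 (75108154 to 75112004) averaged 0.715, 6.494 and 2.668 FPKM and rose in both as well (2.104 and 1.12, adjusted p = 4.01e-06 and 0.000559). Ly6a, Ly6c1, Ly6c2 and Ly6i have closely similar sequences, so the split of reads among them is uncertain.

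**Figure D2:**
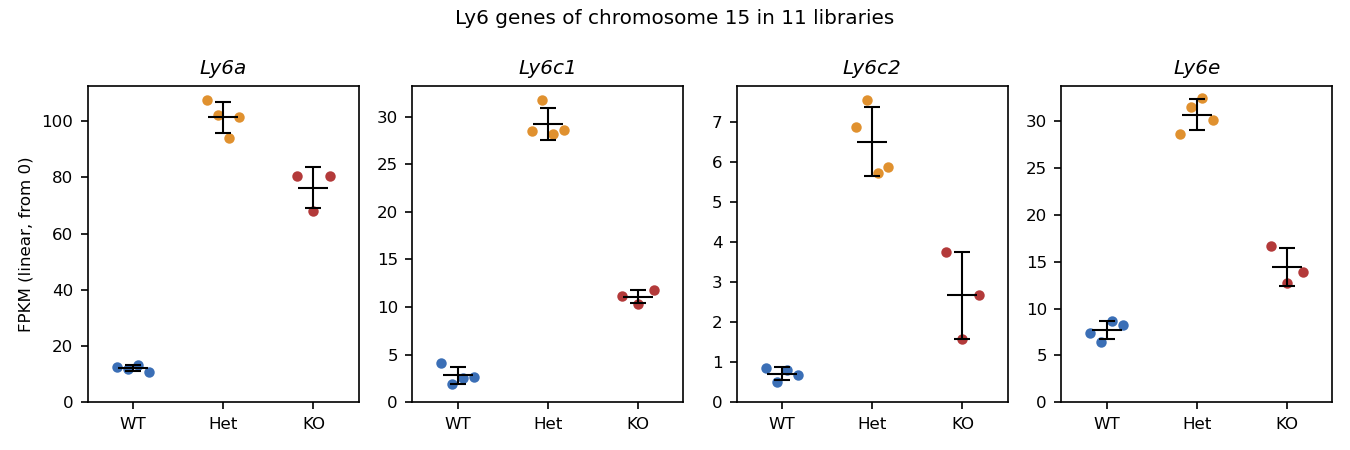
Ly6a and 3 neighbouring Ly6 genes of chromosome 15. Points are libraries (linear FPKM from 0), bars the mean and SD of 4 WT, 4 Het and 3 KO libraries, and in each gene Het is highest, KO between and WT lowest.

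In the wider list of 17 Ly6 and other GPI-anchored genes with a uPAR domain, 7 passed the low-value filter, 6 rose and 1 fell in Het, and 5 rose and 1 fell in KO. Their median log2 difference was 1.60 in Het and 0.92 in KO, where the median over all genes tested was 0.0081 and 0.0089. Lypd6, which binds the Wnt co-receptor LRP6, was among those that rose (1.53 in KO, adjusted p = 1.31e-07), and Lynx1, which binds nicotinic acetylcholine receptors, was the gene that fell (-0.61 in KO, adjusted p = 4.6e-05). With a filter at 5 FPKM 4 were tested, all of them higher in both genotypes. Over all 14940 genes tested, 21.7% were called higher and 22.1% lower in Het, and 23.3% and 23.8% in KO. These shares apply beside the counts of this and every later list, which were not tested as sets. A further list of 10, called the GPI transamidase genes below, was mostly of enzymes that fit the anchor to proteins or remodel it. It also held Piga and Pigl, which act earlier, in making the anchor. This list had a median of -0.20 in KO. There 3 of the 10 fell, near the 23.8% of all genes that did, so nothing is read from the count. They were Pigu (-0.41, adjusted p = 0.0011), Piga (-0.34, adjusted p = 0.0113) and Pigk (-0.27, adjusted p = 0.011). Piga lost its call without KO 3 (adjusted p = 0.0554) and Pigk without KO 4 (adjusted p = 0.0515), and without WT 1 the count lower was 5. In Het, 1 of the 10 rose and 1 fell, with 3 lower without WT 1 and 2 lower without WT 4 or without scaling.

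Thy1, the other GPI-anchored marker and the smallest immunoglobulin-domain protein of the set (chromosome 9, 44043384 to 44048579), was the least abundant in WT. The tables list it at 0 in WT 1, 2 and 3 and at 0.103 FPKM in WT 4, with a Cufflinks interval of 0 to 0.248. Het 1 to 4 held 0.726, 0.589, 0.544 and 0.874 FPKM, and KO 1, 3 and 4 held 2.15, 1.79 and 2.35. The 3 groups did not overlap and the order was KO, Het, WT, although even KO was at a low level. The log2 difference from WT, on the log2(FPKM + 1) scale that understates changes of low genes, was 1.64 (95% interval 1.42 to 1.86) in KO and 0.70 (0.50 to 0.90) in Het. Against Het, KO was 3.07-fold higher. Thy1 passed the filter only through KO, where it is high, and drops below it when any 1 KO library is left out.

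Cd44 encodes the main hyaluronan receptor (chromosome 2, 102811141 to 102901669) and was the most abundant of the 10 in WT. Its FPKM were 60.4, 51.3, 56.1 and 45.9 in WT 1 to 4, 53.2, 55.9, 49.7 and 49.0 in Het 1 to 4, and 38.8, 36.9 and 38.5 in KO 1, 3 and 4. WT and Het overlapped fully and KO lay below both. This was the smallest spread of group means in the set, with a ratio of 1.404 between the highest and the lowest. The log2 difference was -0.37 (95% interval -0.59 to -0.16) in KO and -0.04 (-0.24 to 0.16) in Het, the second turning to 0.029 without WT 1. Against Het, KO was at 73.2% (-0.33, -0.55 to -0.12), and without KO 3 that difference (-0.31) was no longer past the threshold.

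Of 12 hyaluronan and osteopontin genes, the ligands of CD44 and their enzymes, 7 were tested, with 3 higher and 1 lower in KO and 2 higher and 3 lower in Het. Spp1, which encodes osteopontin, rose from 7.682 ± 0.593 FPKM in WT to 35.22 ± 2.671 in Het and 70.08 ± 8.216 in KO, with limma adjusted p = 4.55e-08 and 1.99e-09. Has2, a hyaluronan synthase, rose in KO (1.13, adjusted p = 1.93e-05). Hmmr, a hyaluronan-binding protein of the mitotic spindle, fell in both, by 0.51 in Het and 0.82 in KO (adjusted p = 0.00125 and 6.73e-05). Cemip, which helps to degrade hyaluronan, rose in KO by 0.34 (adjusted p = 0.0135), a call lost without KO 1 (adjusted p = 0.0522) or KO 3 (adjusted p = 0.0677). The list's median was 0.34 in KO and -0.22 in Het, where a filter at 5 FPKM left 1 higher and 1 lower of 4 tested.

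Vcam1 encodes the receptor of endothelium and stroma for the leukocyte integrin α4β1 (chromosome 3, 116110020 to 116129688). WT 1 to 4 gave 31.7, 26.3, 30.7 and 24.7 FPKM, Het 1 to 4 gave 44.4, 51.5, 54.6 and 45.0, and KO 1, 3 and 4 gave 10.5, 12.9 and 9.36. Het was above every WT library and KO below every one. The log2 difference from WT was 0.76 (95% interval 0.49 to 1.02) in Het and -1.21 (-1.49 to -0.92) in KO, where the mean was 38.5% of WT and 22.3% of Het.

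Icam1, the receptor for the leukocyte integrin LFA-1 (chromosome 9, 21015960 to 21028797), took another order. It measured 1.22, 1.57, 1.73 and 2.08 FPKM in WT 1 to 4, 0.476, 0.464, 0.832 and 0.645 in Het 1 to 4, and 0.128, 0.335 and 0.167 in KO 1, 3 and 4. Levels were low throughout and highest in WT, with no overlap between groups. Icam1 passed the filter only through WT. The log2 difference from WT was -0.72 (95% interval -0.97 to -0.46) in Het and -1.09 (-1.37 to -0.82) in KO, and the Cufflinks interval reached 0 in KO 1 and KO 4. KO was at 34.7% of Het (-0.38, -0.65 to -0.11), but this was not past the threshold with a pseudocount of 5 (-0.10) or without Het 3 (-0.31), Het 4 (-0.37), KO 1 (-0.33) or KO 4 (-0.35). Vcam1 and Icam1, often named together as cytokine-induced adhesion proteins, thus differed from WT in opposite directions in Het and in the same direction in KO.

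Of 25 NF-kappaB and cytokine genes that lie upstream of Vcam1 and Icam1 or report on the same signals, 22 were tested. Of these, 4 rose and 8 fell in KO (median -0.08), while 10 rose and 5 fell in Het (median 0.18). Over all genes tested 23.3% rose and 23.8% fell in KO, and 21.7% and 22.1% in Het. The chemokine gene Cxcl10 measured 35.17 ± 3.923 FPKM in WT, 55.35 ± 2.616 in Het and 2.391 ± 0.1933 in KO. It rose in Het and fell in KO (log2 differences 0.64 and -3.33, adjusted p = 6.03e-05 and 2.55e-10). Nfkbie, an inhibitor of NF-kappaB, and Irf1, an interferon-regulated transcription factor, fell in both genotypes (-1.77 and -1.46 in KO, adjusted p = 1.28e-07 and 1.42e-08). Ccl2, which attracts monocytes, rose in both (1.31 in KO, adjusted p = 2.99e-07).

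Ncam1 encodes the neural cell adhesion molecule, which is also made by mesenchyme and muscle (chromosome 9, 49502134 to 49799427). Its FPKM were 4.595, 4.30, 4.98 and 5.16 in WT 1 to 4, 7.82, 7.69, 7.79 and 7.25 in Het 1 to 4, and 14.99, 14.3 and 13.2 in KO 1, 3 and 4. The groups formed 3 separate levels, lowest in WT and highest in KO. The log2 difference from WT was 0.58 (95% interval 0.42 to 0.73) in Het and 1.49 (1.32 to 1.66) in KO. Among the neural markers, Map2, a neuronal microtubule protein, fell in Het and rose in KO (-1.41 and 1.44, adjusted p = 4.91e-07 and 4.96e-07). The more abundant Nes, nestin, fell in both (-0.98 and -0.27, adjusted p = 8.03e-08 and 0.0013), and Tubb3, a neuronal tubulin, rose in Het (1.16, adjusted p = 0.00077) and gave 0.36 in KO (adjusted p = 0.191, and 0.0076 without WT 4). The glial genes Sox10 and Olig2 were listed at 0 in every library.

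Of 10 genes for the polysialic acid of NCAM and its signalling partners, 8 were tested, with 7 higher and 1 lower in Het and 5 higher and 2 lower in KO. The medians were 0.51 and 0.59. Fgfr2 and Fgfr1, fibroblast growth factor receptors that NCAM can engage, rose in KO by 1.67 and 0.99 (adjusted p = 2.05e-07 and 4.38e-05). So did Fyn, the kinase bound by NCAM inside the cell, and Gfra1, a co-receptor for the growth factor GDNF (1.18 and 0.94, adjusted p = 4.77e-07 and 0.000102). Without library KO 4, the count of genes lower in KO was 1, as it was with a filter at 5 FPKM.

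Alcam encodes CD166, an adhesion protein that binds itself and CD6 (chromosome 16, 52248996 to 52453255). It measured 5.86, 5.43, 5.52 and 4.73 FPKM in WT 1 to 4, 0.702, 1.12, 0.859 and 0.776 in Het 1 to 4, and 3.96, 3.64 and 3.67 in KO 1, 3 and 4. Het was far below both other groups, which lay near each other without overlap. The log2 difference from WT was -1.77 (95% interval -1.97 to -1.56) in Het and -0.34 (-0.56 to -0.12) in KO. The latter was not past the threshold without KO 3 or without KO 4 (-0.32 in each case). Alcam was the only one of the 10 that was lowest in Het.

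Of 26 further adhesion proteins of the immunoglobulin superfamily, 11 were tested, with 5 higher and 4 lower in KO (median 0.36) and 2 higher and 6 lower in Het (median -0.24). Over all genes tested 23.3% were higher and 23.8% lower in KO, and 21.7% and 22.1% in Het. A filter at 5 FPKM left 2 of 8 lower in KO. Mcam (CD146), an adhesion protein of pericytes and endothelium, measured 26.2 ± 1.298 FPKM in WT, 14.51 ± 0.6414 in Het and 62.95 ± 0.9138 in KO. It therefore fell in Het (-0.82, adjusted p = 3.93e-07) and rose in KO (1.33, adjusted p = 1.05e-08). The junction protein gene Jam2 did likewise (-0.47 and 0.83, adjusted p = 0.000538 and 1.12e-05). Cadm1, a homophilic adhesion protein, rose in Het and fell in KO (0.48 and -0.83, adjusted p = 0.0032 and 0.000108), and Bcam, a laminin receptor, fell in both (-0.96 and -1.31, adjusted p = 0.00735 and 0.00164). Of 11 integrin and lymphocyte counter-receptors 4 were tested, and Itgb3, the β3 integrin, rose in KO (2.22, adjusted p = 7.86e-09) while Itgb7, the β7 integrin, fell (-1.17, adjusted p = 0.000131). Itgb1, the β1 integrin, gave 0.37 (adjusted p = 0.0148), a call lost without KO 1 (adjusted p = 0.0642) or KO 3 (adjusted p = 0.0511).

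**Figure D3:**
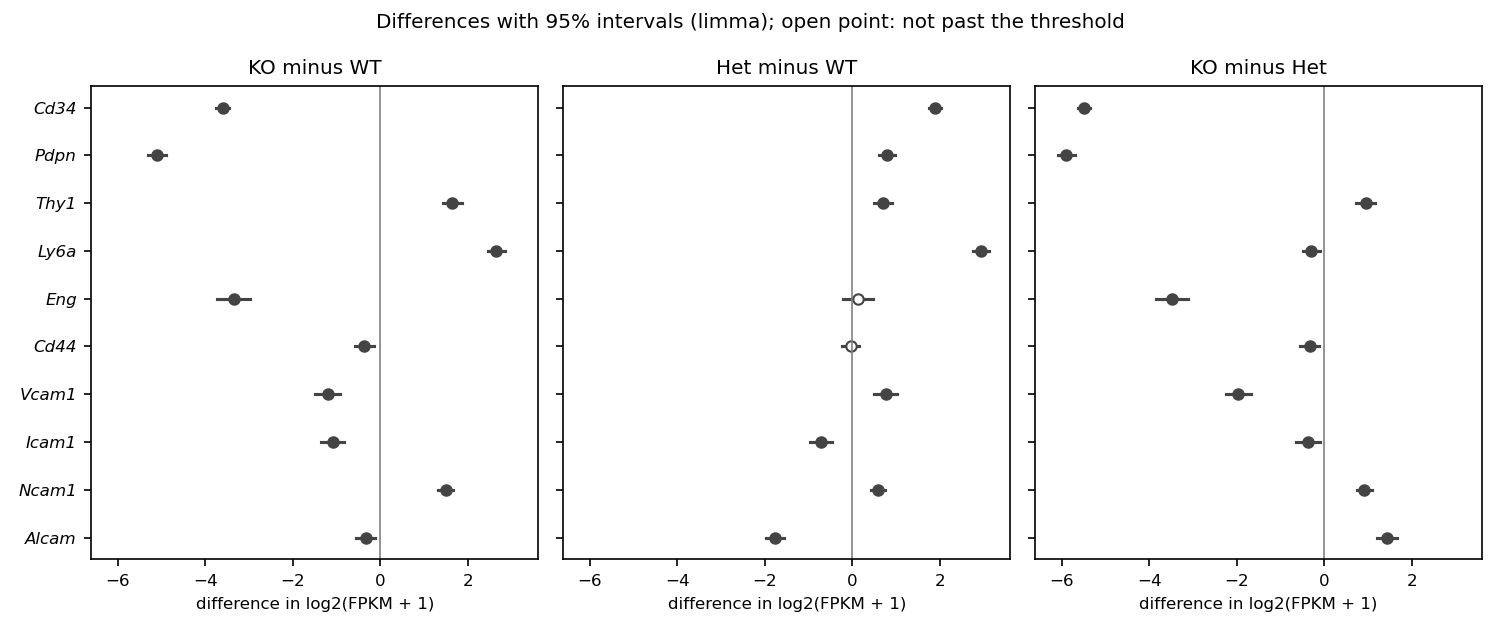
Differences in log2(FPKM + 1) of the 10 genes between genotypes. Points are limma estimates from scaled FPKM with 95% intervals, an open point is not past the threshold, and in Het against WT only Eng and Cd44 are open.

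As a set, 7 of the 10 were lower and 3 higher in KO than in WT at limma's adjusted p threshold of 0.05. Over all 14940 genes tested 47.1% passed it, 23.3% higher and 23.8% lower. The groups did not overlap in 10 of 10, against 46.4% of all genes. Overlap in this paragraph was read from deposited FPKM for the 10 and from scaled FPKM for all genes. Between Het and WT, 6 were higher in Het, 2 lower and 2 not past the threshold (43.8% of all genes passed, 21.7% higher and 22.1% lower), and 8 of 10 did not overlap (39.5%). Between KO and Het, 3 were higher in KO and 7 lower (44.2% of all genes, 22% higher and 22.2% lower), with no overlap in 10 of 10 (54%). Since the set was chosen with these contrasts known, nothing is read from those counts. Medians over the 10 were -0.73 for KO against WT, 0.64 for Het against WT and -0.35 for KO against Het, beside 0.0089, 0.0081 and 0.0071 over all genes. Without scaling between libraries, 37.1% in place of 49.4% of the genes called in KO against WT were higher, and 36.5% in place of 49.8% in KO against Het. The counts of the 10 were the same without scaling.

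By order of the group means the 10 fell into 5 patterns. Cd34, Pdpn, Eng and Vcam1 ran Het, WT, KO from high to low. Ly6a ran Het, KO, WT, while Thy1 and Ncam1 ran KO, Het, WT. Cd44 and Icam1 ran WT, Het, KO, and Alcam alone ran WT, KO, Het. Neighbours in the order that did not differ beyond their spread were WT and Het for Eng and for Cd44. Each Het library lay above every WT and KO library for Cd34, Pdpn, Ly6a and Vcam1 (9.99% of all genes did so) and below every one for Alcam (10.1%), in 5 of 10 genes against 20.1% in all. Against the midpoint of KO and WT on the log2 scale, Het was higher by 3.69 for Cd34, 3.34 for Pdpn, 1.80 for Eng, 1.62 for Ly6a and 1.36 for Vcam1, and differed by -1.60 for Alcam. These 5 higher and 1 lower compare with 44.1% of all genes past the threshold, 21.3% higher and 22.8% lower. The other members gave 0.15 (Cd44), -0.12 (Thy1) and -0.17 (Icam1 and Ncam1) and were not past it, with Cd44 past it without scaling (0.20). Ncam1 was past it with a pseudocount of 5 (-0.15), with a filter at 5 FPKM or no variance trend (both -0.17) and without WT 2 (-0.19) or KO 4 (-0.19). Thy1 was past it with a pseudocount of 5 (-0.09) and turned to 0.54 with one of 0.1.

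The make-up of the marker transcripts differed between genotypes. Summed over the 10 genes, FPKM came to 173.6 ± 12.15 in WT, 359.2 ± 7.838 in Het and 146.3 ± 6.93 in KO. In WT Cd44 made up 30.7% of that sum, Pdpn 22%, Vcam1 16.3%, Cd34 10% and Ly6a 7.04%. Het was led by Ly6a with 28.2%, followed by Cd34 (18.8%), Pdpn (18.6%), Cd44 (14.4%) and Vcam1 (13.6%). In KO Ly6a alone held 52.1% and Cd44 26%, followed by Ncam1 with 9.68%, while Cd34 and Pdpn gave 0.318% and 0.0726%.

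**Figure D4:**
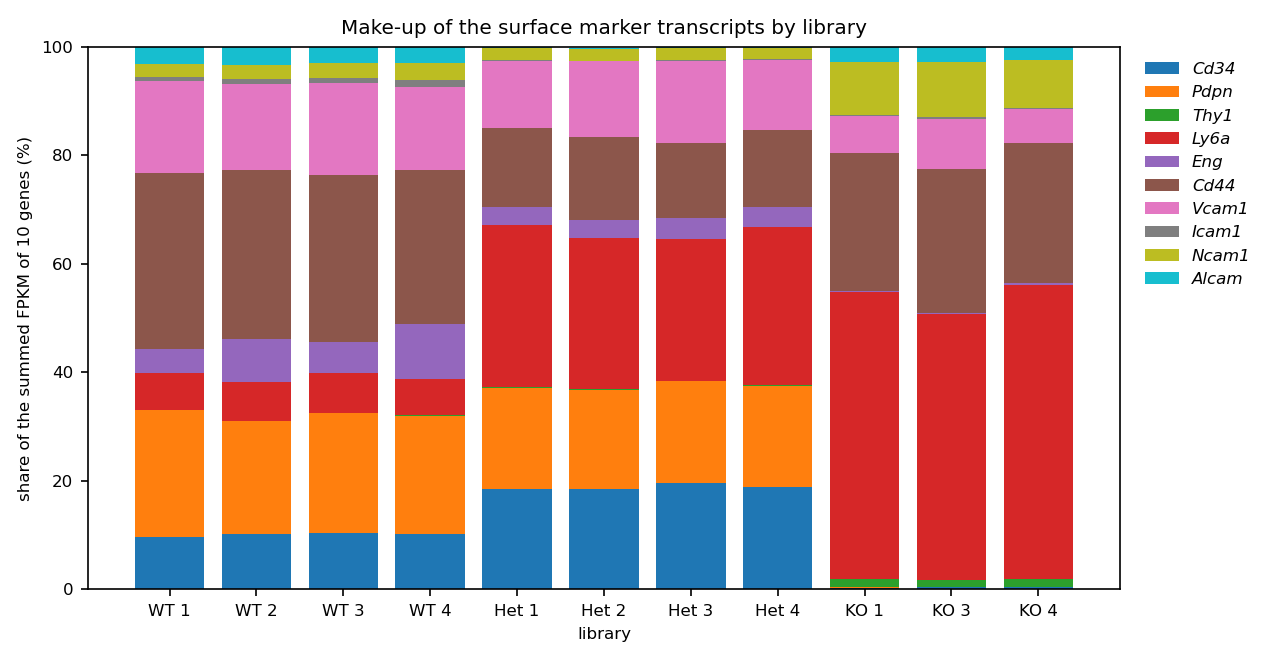
Share of each gene in the summed FPKM of the 10 markers, in percent, with 1 stacked bar for each of the 11 libraries. Cd44 and Pdpn lead in WT, Ly6a with Cd34 and Pdpn in Het, and Ly6a with Cd44 in KO. Within WT the share of Eng ran from 4.52% to 10.1%.

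Other surface proteins of mesenchymal cells moved in both directions. Of 40, 32 were tested, with 17 higher and 9 lower in KO (median 0.24) and 12 higher and 10 lower in Het (median -0.02). Dlk1, an inhibitor of adipocyte formation, measured 0.5924 ± 0.1323 FPKM in WT, 8.552 ± 1.686 in Het and 15.16 ± 3.995 in KO, and it rose in both (2.55 and 3.39, adjusted p = 4.14e-07 and 5.59e-08). F3, which encodes the coagulation initiator tissue factor, rose from 7.389 FPKM in WT to 24.79 in Het and 76.15 in KO (1.61 and 3.30, adjusted p = 4.55e-08 and 1.8e-10). Pdgfrb, a receptor for platelet-derived growth factor, rose in both as well (1.03 and 1.85, adjusted p = 3.74e-06 and 5.87e-08). Cspg4, the proteoglycan NG2, fell from 3.925 ± 1.77 FPKM in WT to 1.964 ± 0.4199 in Het and 0.01242 ± 0.02152 in KO, with adjusted p = 0.0229 and 1.76e-05. Its call in Het was lost without WT 2 (adjusted p = 0.0598), without Het 2 (adjusted p = 0.0653) and with no low-value filter (adjusted p = 0.0579). With a filter at 5 FPKM the count lower in KO was 5.

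Genes related to the mucin-like members and to endoglin were counted in the same way. Of 8 genes listed around the CD34-family sialomucins and podoplanin, 4 were tested. In KO Clec2d, a C-type lectin that is not the podoplanin receptor CLEC-2, rose (1.48, adjusted p = 0.000109). Clec1b, which encodes CLEC-2, averaged at most 0.02906 FPKM in any genotype and was too low to test. Podxl2 (endoglycan) and Lgals8 (galectin-8, which binds podoplanin) fell in KO (-1.14 and -0.57, adjusted p = 0.000874 and 0.000504). Podxl, podocalyxin, gave 0.35 (adjusted p = 0.0171), and the call was lost without KO 3 (adjusted p = 0.0656). Of the 22 genes of the endoglin receptor complex and its signalling, 18 were tested, with 9 higher and 4 lower in KO (median 0.39) and 6 higher and 2 lower in Het (median 0.19), and the count lower in KO was 2 without library KO 4 or with only KO and WT in the fit. Over all genes tested 23.3% were higher and 23.8% lower in KO, and 21.7% and 22.1% in Het. Tgfbr2, the type II TGF-β receptor, fell alike in Het and KO (-1.30 and -1.31, adjusted p = 2.45e-08 and 2.49e-08). Tgfbr3 (betaglycan, a co-receptor related to endoglin) and the ligand gene Tgfb3 rose in both (1.28 and 1.25 in KO, adjusted p = 1.51e-06 and 1.5e-06). Id3, a target of bone morphogenetic protein signalling, rose in KO (1.92, adjusted p = 0.00418), with WT at 25.41 ± 17.31 FPKM. Of the other Id genes listed, Id2 rose in KO (1.21, adjusted p = 1.59e-06). Id1 was not past the threshold there (0.37, adjusted p = 0.135) and was highest in Het. The BMP genes Gdf2 (BMP9) and Bmp10 were listed at 0 in all libraries.

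Linkers between the membrane and actin, and enzymes that cut surface proteins, were read last. Of the 6 ezrin, radixin, moesin and merlin genes of the list, 2 rose and 2 fell in KO, and 1 rose and 1 fell in Het, where without WT 1 the count lower was 2 and without WT 4 the count higher was 2. Msn, moesin, rose from 187.1 ± 6.559 FPKM in WT to 406.8 ± 10.88 in KO (1.22, adjusted p = 4.82e-08), and gave 0.07 in Het (adjusted p = 0.352). Ezr, ezrin, rose in Het and KO (0.76 and 0.79, adjusted p = 0.000565 and 0.000582), Rdx, radixin, fell in both (-0.32 and -0.33, adjusted p = 0.00717 and 0.00983), and Nf2, merlin, fell in KO (-0.41, adjusted p = 0.0027). Of 15 sheddases 7 rose and 4 fell in KO, and 5 rose and 5 fell in Het. For both lists the shares over all genes were 23.3% higher and 23.8% lower in KO, and 21.7% and 22.1% in Het. Adam12 and Mmp14, membrane-bound metalloproteinases, rose in KO (1.65 and 0.85, adjusted p = 1.79e-07 and 2.13e-06). Mmp9, a gelatinase that docks on CD44, fell (-0.84, adjusted p = 0.00161). The count of sheddases lower in KO was 2 without WT 2, WT 3, KO 3 or KO 4, with only KO and WT in the fit, with a filter at 5 FPKM and with none.

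**Figure D5:**
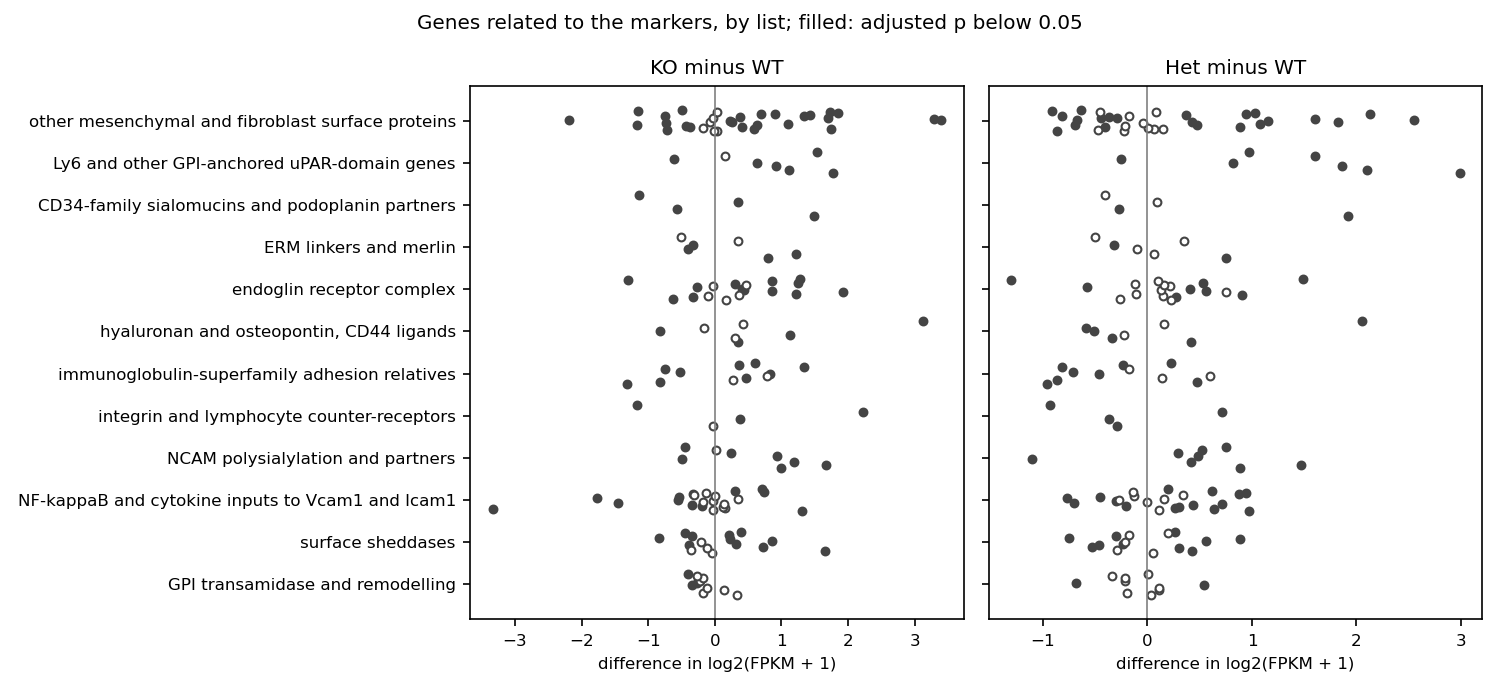
Genes related to the markers, 1 line for each list, with the difference in log2(FPKM + 1) of KO against WT (left) and Het against WT (right). Points are genes, filled where limma's adjusted p is below 0.05, and all lists but the GPI transamidase genes in KO hold filled points on both sides of 0.

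For each of the 10, the genes whose log2 levels ran most alike over the 11 libraries were found among 9250 or 9251 others that averaged 5 FPKM or more in their highest group. The correlations are descriptive, since all points share the 3 genotypes. Nearest to Pdpn were Cxcl10 (r = 0.9965) and Bgn, the matrix proteoglycan biglycan (0.9961), which averaged 154.4, 291.7 and 9.521 FPKM in WT, Het and KO. Cd34 ran closest to Gpx7 (0.9967) and Tmem254b (0.9951), with Gpx7 at 4.252 and 9.618 FPKM in WT and Het and listed at 0 in KO. Eng was nearest to Sh3bp5 (0.9970) and Znfx1 (0.9923). Ly6a was nearest to Fam111a (0.9962), at 0.614, 67.59 and 35.04 FPKM, and Mgst1 (0.9957), at 2.244, 28.77 and 18.46. Vcam1 ran with Nsg1 (0.9921) and Phf8 (0.9898), Alcam with Ganab (0.9948) and Cnot10 (0.9908), and Ncam1 with Irf2bp2 (0.9922) and Col6a3 (0.9910), a chain of collagen VI. Thy1 was nearest to Sord (0.9863) and Gabbr1 (0.9861), Cd44 to Tiparp (0.9803) and Top2a (0.9763), and Icam1 to the class I histocompatibility genes H2-K1 (0.9808) and H2-Q4 (0.9747), whose near-identical copies make the split of reads uncertain. Among the 10 themselves the highest correlations were between Cd34 and Vcam1 (0.983), Pdpn and Eng (0.981) and Thy1 and Ncam1 (0.978).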

How the data were processed

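The deposited tables hold FPKM per locus with the authors' confidence interval. Per the submitters' processing notes these came from TopHat2 2.1.0 and Cufflinks 2.2.1 on GRCm38.p4. No read counts are given, so count models were not used. FPKM of loci sharing a symbol were summed (1766 symbols), and 31 symbols turned into dates in the WT 1 table were taken from the others. Levels are the deposited FPKM. For differences, each library was divided by a median-of-ratios factor (0.941 to 1.04, from 13981 genes), and the 14940 genes that reached 1 scaled FPKM in 3 or more libraries were kept. Limma 3.58.1 was run on log2(FPKM + 1), a pseudocount of 1 (R 4.3.3; empirical Bayes with trend, all 11 libraries, Benjamini-Hochberg over all genes tested, threshold 0.05), after being tested on simulated data. FPKM carry no depth. Relative depth was estimated from the steps between values under 0.3 FPKM.

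The 10 genes and the related lists were chosen with earlier results of these data known. Named besides the 10 were, from each list, up to 4 genes past the threshold in KO against WT with the largest differences, and for each of the 10 the 2 most correlated genes. Other genes named are markers listed at 0 and neighbours of a locus, and further genes of the cell type and related lists, chosen after their values were seen. Alternatives were other scalings, pseudocounts, filters, the first locus alone, no trend, 2-group fits, a replicate block and leaving out each library.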

Additional observations from a re-analysis of the deposited data

Results flagged for a closer look

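In 2 of 20 sets of 4 libraries (the 10 genes in WT and in Het), 1 library lay apart from the other 3 by more than Dixon's critical share of the group's range. Chance gives this in about 1 in 20 sets. Pdpn in Het 4 was 64.88 FPKM, below the other Het libraries by 0.875 of the range, though the group's SD was 1.324 FPKM around 66.85. Thy1 in WT 4 was 0.1025 FPKM, where the other WT libraries are listed at 0. With those at 0, any value above 0 in WT 4 would be flagged, so the rate of 1 in 20 does not apply to this set.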

How the results depend on the processing

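Of 808 recomputed differences of the 10 genes, 788 kept their direction and their side of the threshold. Those that lost the threshold, all between -0.10 and -0.37, are named beside the results. The reversed values were Thy1 against the midpoint with a pseudocount of 0.1 (0.54), and, in Het against WT without WT 1, Eng (-0.015; up to 0.261 with other libraries left out) and Cd44 (0.029; down to -0.119), none of which was past the threshold. With a filter at 5 FPKM Thy1 and Icam1 were not tested, and 1 gene in place of 2 was lower in Het than in WT. Leaving out each library in turn gave 2 to 3 higher and 6 to 7 lower in KO against WT, 5 to 6 higher and 2 lower in Het against WT, 2 to 3 higher and 5 to 7 lower in KO against Het, and 6 to 7 off the midpoint.

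With the replicate number as a block, 3 of the 10 were higher and 7 lower in KO against WT, 6 and 2 in Het against WT, and 3 and 7 in KO against Het, as without it, while 7293 in place of 7041 genes were called in KO against WT. The block moved the sheddases lower in KO from 4 to 2, the GPI transamidase genes lower in Het from 1 to 3, and the actin linkers in Het from 1 higher and 1 lower to 2 and 2. The labels do not say whether equal numbers mark paired libraries. Correlations of deviations ran from -0.101 to 0.353 between same-numbered libraries and from -0.399 to 0.180 between others. The highest were WT 4 with KO 4 (0.353), WT 1 with KO 1 (0.333), WT 4 with Het 4 (0.259) and Het 4 with KO 4 (0.254). Whether libraries of the same number share a day or culture was not tested.

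Depth limits Thy1 in WT and Pdpn, Eng, Icam1 and Cd34 in KO, all below 0.5 FPKM. Surface protein was not measured.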
